A study of Homo sapiens with 6 samples.

Results

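The serine synthesis and folate one-carbon enzymes are described here as 10 genes out of the 63241 genes of the count data, chosen by name: PHGDH, PSAT1 and PSPH of serine synthesis, the paralogs SHMT1 and SHMT2, and MTHFD2, MTHFD1L, MTHFD1, ALDH1L2 and TYMS of the folate pathway. Of these, 4 encode mitochondrial enzymes (SHMT2, MTHFD2, MTHFD1L and ALDH1L2) and 6 encode cytosolic enzymes, with TYMS also found in the nucleus. The cells were HT-1376, an established human bladder carcinoma cell line, with SHMT2 as the gene knocked down. The siSHMT2 group (3 libraries, labelled as an SHMT2 knockdown) was transfected with a single siRNA sequence against SHMT2, and the siNC group (3 libraries, labelled WT) with a non-targeting siRNA. All cells were otherwise the same line, grown in Leibovitz's L-15 with serum and antibiotics and collected 24 h after transfection, and mRNA was captured for strand-specific libraries.

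Serine is made from the glycolytic intermediate 3-phosphoglycerate in 3 steps, by PHGDH, PSAT1 and PSPH. From serine the SHMT enzymes load tetrahydrofolate with a one-carbon unit, and glycine is left over. In mitochondria SHMT2 passes this unit to MTHFD2 and MTHFD1L, which release it as formate, or to ALDH1L2, which oxidizes it to CO2. In the cytosol MTHFD1 takes formate back onto folate for purine and thymidylate synthesis, and TYMS, thymidylate synthase, uses the unit to make dTMP. SHMT1 can run the cytosolic reaction in either direction, and proliferating tumor cells can depend on the mitochondrial branch.

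The RefSeq windows from 250 bases before to 50 bases after a gene's start were at hand for 7 of the 10 genes. They are shown for the first pair of enzymes of serine synthesis, of which PSAT1 was apart between the groups and PHGDH was not, and for MTHFD1L. This gene alone among the 7 held the letters TGATGNAA, the core of a site that the stress factor ATF4, a known regulator of serine enzymes, can bind. The windows are in GRCh38.p14, all on the plus strand: chr1:119711684-119711983 for PHGDH, chr9:78296875-78297174 for PSAT1 and chr6:150866236-150866535 for MTHFD1L. Those of PHGDH and MTHFD1L begin inside the longer gene spans of GENCODE release 44. Capitals mark each match of TGATGNAA or of CCAAT, the box bound by NF-Y, on either strand.
PHGDH: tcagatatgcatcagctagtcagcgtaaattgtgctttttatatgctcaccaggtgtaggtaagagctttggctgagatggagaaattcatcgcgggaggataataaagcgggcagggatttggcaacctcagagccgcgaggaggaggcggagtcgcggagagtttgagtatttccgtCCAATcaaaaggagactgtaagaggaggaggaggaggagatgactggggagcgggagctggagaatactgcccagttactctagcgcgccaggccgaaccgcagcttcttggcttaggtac
PSAT1: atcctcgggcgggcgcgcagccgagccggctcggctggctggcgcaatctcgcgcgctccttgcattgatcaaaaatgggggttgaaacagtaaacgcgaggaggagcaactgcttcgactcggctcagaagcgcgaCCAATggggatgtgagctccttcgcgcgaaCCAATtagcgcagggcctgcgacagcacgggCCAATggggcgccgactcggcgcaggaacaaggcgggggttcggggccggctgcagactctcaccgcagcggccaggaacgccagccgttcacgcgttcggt
MTHFD1L: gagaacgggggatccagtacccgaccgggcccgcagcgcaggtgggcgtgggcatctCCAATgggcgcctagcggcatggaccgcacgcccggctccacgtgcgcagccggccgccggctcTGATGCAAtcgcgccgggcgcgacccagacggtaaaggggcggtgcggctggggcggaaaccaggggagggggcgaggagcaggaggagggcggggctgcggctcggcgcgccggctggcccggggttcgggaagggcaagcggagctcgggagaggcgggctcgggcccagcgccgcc

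The letters TGATGNAA occurred in 3 of the 4 start windows of MTHFD1L and in 3.62% of all 35116 windows. CCAAT was matched 3 times in the PSAT1 window, 2 times each in those of SHMT1, MTHFD2 and MTHFD1, 1 time in that of PHGDH and in 3 of the 4 of MTHFD1L, and not in that of TYMS, and 34.6% of all windows held at least 1 match. The E-box CACGTG was matched in 3 of the 4 MTHFD1L windows and in the MTHFD1 window, and 7.26% of all windows held it. CACGTG overlapped no TGATGNAA match in the window shown. The motifs describe the sequence only, and no binding was measured.

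Replicates 1 to 3 of siNC held 817748, 660559 and 890574 counts on all genes, and those of siSHMT2 533689, 818859 and 815061. These are counts assigned to genes, not the number of reads sequenced. The 10 genes had between 0 and 103 of them each per library. The strand setting of the counting is not given in the sources used here, so reads from a gene and from a gene on its opposite strand could not be told apart. If the strand-specific libraries had been counted with the opposite strand setting, a gene's counts would be reads from its other strand, which bears on every count, FPKM value and order of levels given here. Which setting was used was not tested, and the counts of genes on the opposite strand are given beside the enzymes. On the first principal component of log2 CPM (the count relative to all counts of the library), which held 27.6% of the variance, siSHMT2 replicate 1, the library with the fewest counts, had a score of 33.7 while the other 5 lay between -12.5 and -1.02. On the second, siNC replicate 2 stood at -28.3 and the others between -1.13 and 15.3. Values without these libraries are given where they changed a result.

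HT-1376 is labelled as bladder cancer cells. All 10 urothelial and epithelial markers had counts in every library, led by the keratin KRT8 with an FPKM value of 1014 to 1130. FPKM is the read count scaled by the length of the gene and by the total of the library. Of 9 markers of fibroblasts, endothelium and leukocytes, 4 (PDGFRB, VWF, PTPRC and CD3E) had 0 counts throughout. The summed FPKM of these 9 was 2.25 to 5.85 per library, against 2118 to 2371 for the epithelial markers, and COL1A2 was the most counted of them with 62 in total.

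SHMT2, the silenced gene, was lower in every siSHMT2 library than in every siNC library. SHMT2 (ENSG00000182199; chr12:57229573-57234935, plus strand) had 28, 15 and 20 counts in siNC and 9, 2 and 5 in siSHMT2. In FPKM these were 10.0, 6.65 and 6.57 against 4.94, 0.715 and 1.80. The highest siSHMT2 value was that of replicate 1, and the groups did not overlap. The mean of 7.75 ± 1.97 (SD, n = 3) in siNC was 3.12-fold that of siSHMT2, 2.48 ± 2.19 (p = 0.1, exact permutation test, two-sided, the lowest p possible for 3 against 3). Its log2 fold change of -1.78 (95% interval -2.74 to -0.82) was the lowest of all 7207 tested genes, with a Benjamini-Hochberg adjusted p of 0.93 (edgeR, quasi-likelihood test). SHMT2 reached the level of the filter on low counts in 3 siNC libraries and 1 siSHMT2 library, so this place is a description. With a library left out, the log2 fold change of SHMT2 ran from -2.58, without siSHMT2 replicate 1, to -1.31, without siSHMT2 replicate 2. The log2 ratio of mean FPKM ran from -2.63 to -1.20 in the same way. In RNA from whole cultures, fewer cells that express a gene and less RNA per cell cannot be told apart.

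SHMT1 encodes the cytosolic paralog, which catalyzes the same reaction. Its FPKM was 6.21, 1.10 and 6.11 across siNC and 0.680, 3.10 and 2.23 across siSHMT2. These values overlapped between the groups, since siNC replicate 2 lay below 2 of the siSHMT2 libraries. SHMT1 (ENSG00000176974; chr17:18327860-18363563, minus strand) had 14, 2 and 15 counts in siNC and 1, 7 and 5 in siSHMT2. It did not pass the filter on low counts. Mean FPKM was 4.47 ± 2.92 (SD, n = 3) in siNC against 2.00 ± 1.23 in siSHMT2 (p = 0.3, exact permutation test, two-sided). Fitted without the filter, its log2 fold change was -1.08, with a 95% interval from -2.20 to 0.04 and an unadjusted p of 0.058 (edgeR; the adjusted p was 0.84 here and up to 1.00 in other fits that kept the gene). The upper end of that interval is a 1.03-fold higher level, so in this fit a larger rise of SHMT1 mRNA beside the lower SHMT2 lay outside it. That end belongs to this fit alone, on a gene with few counts, and does not bound the fits that left out a library. The 4 fits that each left out a library and kept SHMT1 gave -1.51 to -0.77, with an unadjusted p from 0.026, without siNC replicate 2, to 0.24, without siSHMT2 replicate 1.

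The combined FPKM of SHMT1 and SHMT2 was 16.2, 7.75 and 12.7 in siNC and 5.62, 3.82 and 4.02 in siSHMT2. Every siSHMT2 library held less SHMT mRNA than every siNC library. This sum includes SHMT2, the silenced gene, and SHMT1 alone overlapped between the groups. The part of the sum that came from SHMT2 was 61.7%, 85.8% and 51.8% in siNC and 87.9%, 18.7% and 44.7% in siSHMT2. This share varied more within siSHMT2 than between the group means of 66.5% and 50.4%. It rested on 17 to 42 SHMT counts in a siNC library and on 9 or 10 in a siSHMT2 library.

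**Figure D1:**
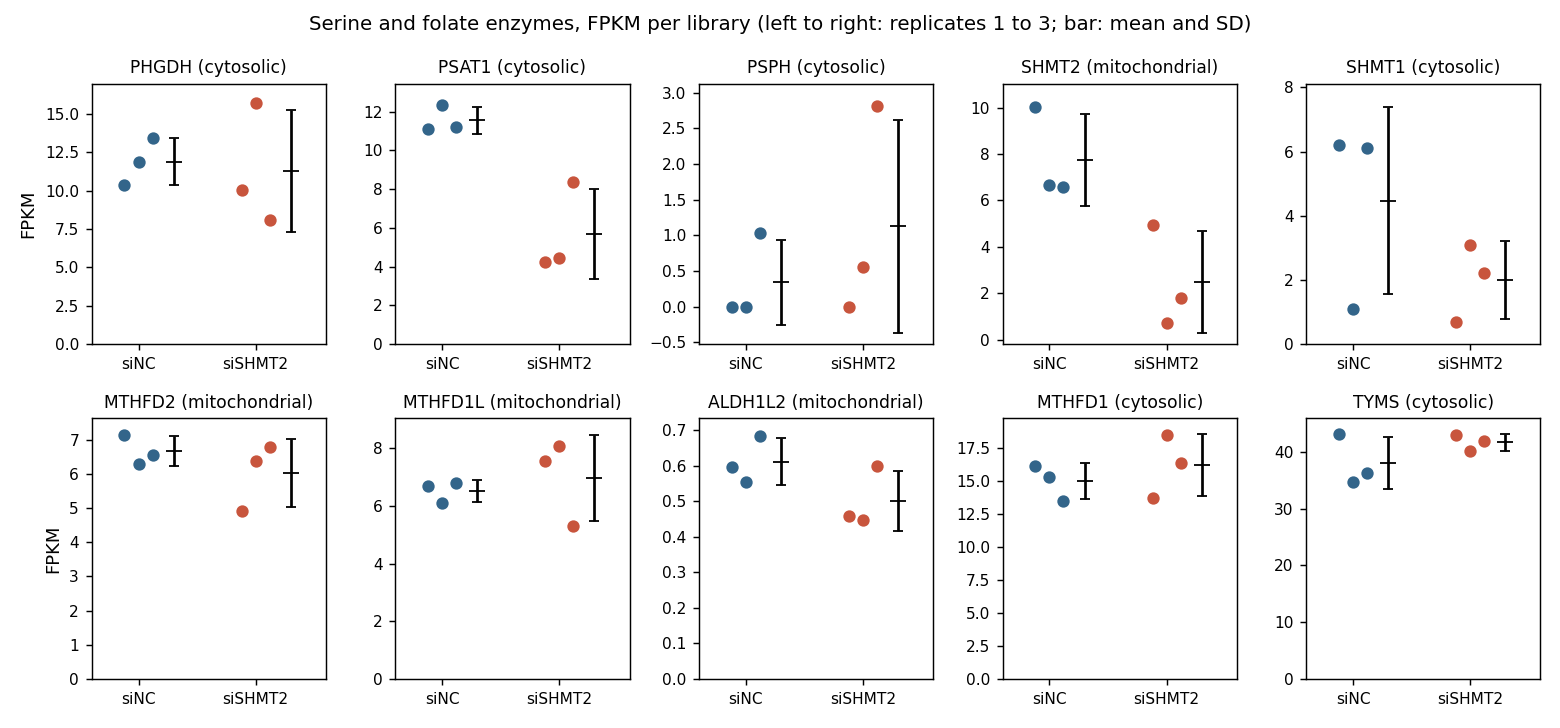
FPKM (vertical axes, linear) of the 10 serine and folate enzyme genes in the 3 siNC (blue) and 3 siSHMT2 (red) libraries, with points from left to right for replicates 1 to 3 and a black bar for the mean and SD. The points of siSHMT2 all lie below those of siNC for SHMT2 and PSAT1, and the groups overlap for the other 8 genes.

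The enzymes of serine synthesis had no common pattern. PHGDH overlapped between the groups, PSAT1 had lower FPKM in siSHMT2, and PSPH had almost no counts.
PHGDH, the dehydrogenase of the first step (ENSG00000092621; chr1:119648411-119744218, plus strand), had 10.4, 11.9 and 13.4 FPKM in siNC and 10.0, 15.7 and 8.10 in siSHMT2. The siSHMT2 libraries held both the highest and the lowest value. For PHGDH the log2 fold change was -0.06, and its 95% interval of -0.65 to 0.54 (edgeR) spans 0.636-fold to 1.45-fold.

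PSAT1, the aminotransferase of the next step (ENSG00000135069; chr9:78297125-78330093, plus strand), had 20, 18 and 22 counts in siNC and 5, 8 and 15 in siSHMT2. Its FPKM values were 11.1, 12.4 and 11.2 against 4.25, 4.43 and 8.34. The siNC values lay close together and all siSHMT2 values lay below them. The siNC mean of 11.5 ± 0.701 (SD, n = 3) was 2.04-fold the siSHMT2 mean of 5.67 ± 2.31 (p = 0.1, exact permutation test, two-sided). On the log2 scale the fold change was -0.98 (95% interval -1.78 to -0.17), with an unadjusted p of 0.018, at rank 101 of the 7207 genes, and an adjusted p of 1.00 (edgeR). PSAT1 reached the level of the filter in 3 siNC libraries and 1 siSHMT2 library, so its p-values and rank are descriptions. The unadjusted p was under 0.05 in 10 of 13 alternatives and was 0.052 without siNC replicate 2, 0.051 without siSHMT2 replicate 1 and 0.076 without siSHMT2 replicate 2. No exon of another gene on the opposite strand overlaps the exons of PSAT1.

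The ratio of PSAT1 to PHGDH FPKM was 1.07, 1.04 and 0.835 in siNC and 0.424, 0.281 and 1.03 in siSHMT2. Replicate 3 of siSHMT2 lay within the siNC range and the other siSHMT2 libraries lay below it.

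PSPH, the phosphatase of the last step (ENSG00000146733; chr7:56011051-56051604, minus strand), had 0, 0 and 2 counts in siNC and 0, 1 and 5 in siSHMT2. A count of 0 allows up to 3 counts, or 3.67 and 4.54 CPM in siNC replicates 1 and 2 and 5.62 CPM in siSHMT2 replicate 1 (counting error only). A difference between the groups was not detectable with so few counts, and the log2 fold change of 1.52 without the filter had a 95% interval from -1.27 to 4.30 (edgeR).

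Downstream of SHMT2 in mitochondria, the 2 enzymes with enough counts overlapped between the groups. MTHFD2, the methylene-tetrahydrofolate dehydrogenase and cyclohydrolase (ENSG00000065911; chr2:74186172-74217565, plus strand), had 7.14, 6.28 and 6.56 FPKM in siNC and 4.90, 6.38 and 6.79 in siSHMT2. Only siSHMT2 replicate 1 lay outside the siNC range. MTHFD2 had a log2 fold change of -0.12 (95% interval -0.66 to 0.42, edgeR).

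MTHFD1L, the mitochondrial formate-tetrahydrofolate ligase (ENSG00000120254; chr6:150865679-151101887, plus strand), had 6.69, 6.10 and 6.79 FPKM in siNC and 7.55, 8.08 and 5.30 in siSHMT2. Both sides of the siNC range were reached by siSHMT2 libraries. The log2 fold change was 0.09 (95% interval -0.61 to 0.79, edgeR).

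ALDH1L2, which oxidizes 10-formyl-tetrahydrofolate (ENSG00000136010; chr12:105019784-105107643, minus strand), had 4, 3 and 5 counts in siNC and 2, 3 and 4 in siSHMT2. The FPKM values were 0.597, 0.554 and 0.685 against 0.457, 0.447 and 0.599, and they overlapped. It was below the filter, and without the filter the log2 fold change was -0.27 (95% interval -1.87 to 1.32, edgeR).

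In the cytosol MTHFD1 and TYMS had the highest FPKM of the 10 genes, with small differences between the groups. MTHFD1, the trifunctional folate enzyme (ENSG00000100714; chr14:64388031-64463457, plus strand), had 16.2, 15.3 and 13.5 FPKM in siNC and 13.7, 18.5 and 16.4 in siSHMT2. Its groups overlapped, and the log2 fold change was 0.13 (95% interval -0.23 to 0.50, edgeR).
TYMS (ENSG00000176890; chr18:657653-673578, plus strand) had 43.2, 34.7 and 36.2 FPKM in siNC and 43.0, 40.1 and 41.8 in siSHMT2. The highest value belonged to siNC replicate 1 and the lowest to siNC replicate 2. TYMS had a log2 fold change of 0.13 (95% interval -0.31 to 0.57, edgeR), so that a rise of more than 1.49-fold lay outside the interval.

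**Figure D2:**
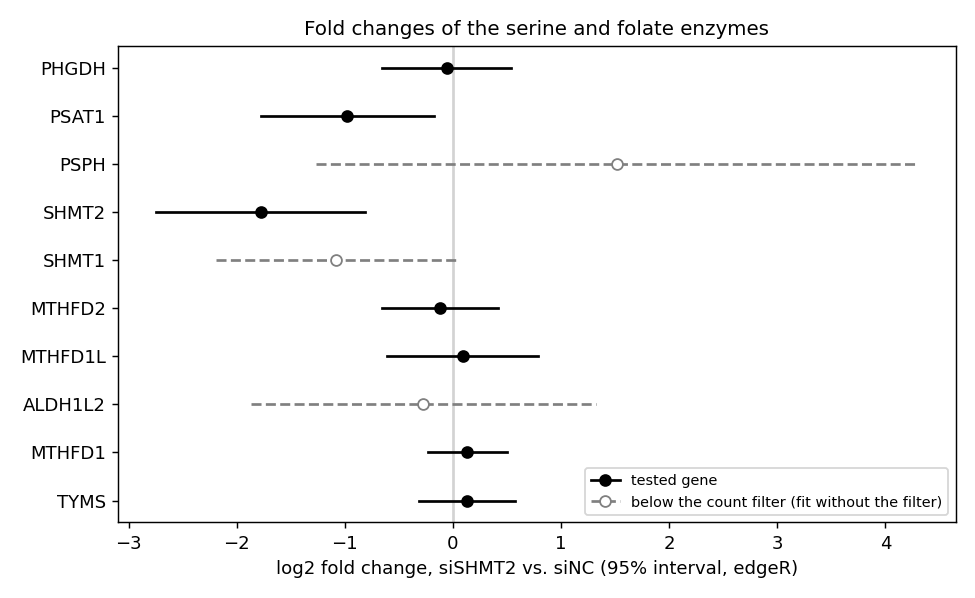
Log2 fold change of siSHMT2 vs. siNC (horizontal axis) with its 95% interval for each enzyme gene, filled points and solid lines for genes that passed the count filter and open points and dashed lines for genes below it, fitted without the filter. Only the intervals of SHMT2 and PSAT1 lie wholly below 0, and no interval lies wholly above it.

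Across the 10 genes, 7 passed the filter, which asked for at least 12.2 CPM in 3 libraries. SHMT2 and PSAT1 reached this level in 3 siNC libraries and in 1 siSHMT2 library each, so they passed mainly through siNC, and the counts that follow are descriptions. No enzyme reached an adjusted p under 0.05, and neither did any tested gene (0 of 7207, or 0%, with edgeR and 0 with DESeq2, while 277 genes, or 3.84%, had an unadjusted p under 0.05 with edgeR). An unadjusted p under 0.05 with a fold change over 1.5 was reached by 2, SHMT2 and PSAT1, both lower in siSHMT2, where 2.68% of all tested genes passed in either direction and 1.32% as lower. The log2 CPM of the groups did not overlap for the same 2 genes, against 9.20% of all tested genes. One of the 2 is the gene the siRNA was made against. The median log2 fold change of the 7 genes was -0.06 and that of all tested genes -0.00. For the other 5, the log2 fold change did not exceed 0.13 in size.

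No enzyme passed these thresholds as higher in siSHMT2, so none met them as a compensating increase. With no library left out, the upper ends of the 95% intervals were a 1.34-fold higher level for MTHFD2 and 1.42-fold for MTHFD1. They were 1.45-fold for PHGDH and 1.73-fold for MTHFD1L. These ends belong to that fit alone and do not bound the fits that left out a library. There the log2 fold change ran from -0.07 to 0.28 for MTHFD1L and from -0.43 to 0.17 for PHGDH. For ALDH1L2 and PSPH, fitted without the filter, the upper ends were 2.50-fold and 19.7-fold, too wide to describe a change. Protein and enzyme activity were not measured in these data.

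**Figure D3:**
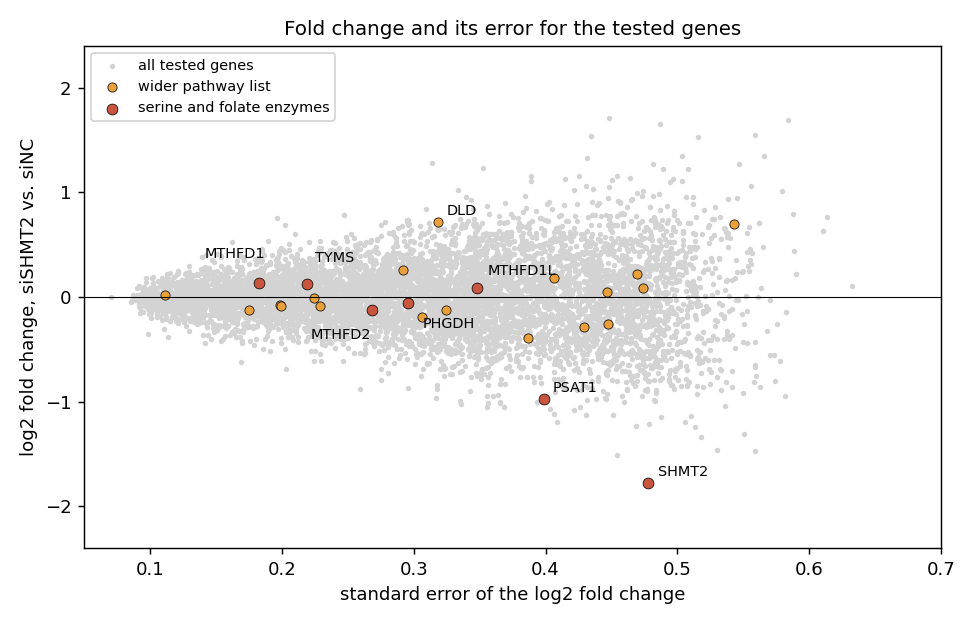
Log2 fold change of siSHMT2 vs. siNC (vertical axis) against its standard error (horizontal axis) for the 7207 tested genes (grey), with the 18 tested genes of the wider pathway list in orange and the 7 tested enzyme genes in red. SHMT2 is the lowest point of all, PSAT1 lies near the lower edge at its error, and the other 5 enzymes lie close to 0.

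The levels of the genes in siNC were ordered by mean FPKM as TYMS (38.0 ± 4.54, SD, n = 3), MTHFD1 (15.0 ± 1.35), PHGDH (11.9 ± 1.52), PSAT1, SHMT2, MTHFD2 (6.66 ± 0.439), MTHFD1L (6.52 ± 0.371), SHMT1, ALDH1L2 (0.612 ± 0.0667) and PSPH (0.344 ± 0.595). Between neighbours the siNC ranges overlapped for PHGDH and PSAT1, for SHMT2, MTHFD2, MTHFD1L and SHMT1 in turn, and for ALDH1L2 and PSPH. In siSHMT2 both PSAT1 and SHMT2 came after MTHFD1L and MTHFD2. The 4 mitochondrial genes made up 21.9%, 20.6% and 20.2% of the summed FPKM of the 10 genes in siNC and 19.9%, 15.9% and 15.4% in siSHMT2, a sum that includes SHMT2 itself. The gene lengths listed with the FPKM values equal the exonic bases in GENCODE release 44 for 1 of the 10 genes, PSAT1. With exonic bases as length, an alternative chosen after seeing the data, PSAT1 came second in siNC and PHGDH sixth.

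The genes on the opposite strand differed widely in their counts. Exons of other genes lie opposite to exons of 6 of the 10 enzymes, and none opposite to those of PHGDH, PSAT1, PSPH and MTHFD1L. For SHMT2 they cover 8.38% of the exonic bases, and for SHMT1 2.81%, but the genes there had 1 and 3 counts in total for SHMT2 (NDUFA4L2 and a lncRNA gene) and 1 for SHMT1 (SMCR8).
TYMS had the largest share of its exonic bases covered, though not the most bases. ENOSF1 (ENSG00000132199), which encodes a mitochondrial enolase superfamily protein, shares 967 bases with the TYMS exons, and in all 47.9% of the exonic bases of TYMS are covered. TYMS had 57, 37 and 52 counts in siNC and 37, 53 and 55 in siSHMT2. ENOSF1 had 2972, 2402 and 3163 counts in siNC and 1734, 2750 and 2804 in siSHMT2, 54.4 times those of TYMS in total. Its log2 fold change was -0.11 (standard error 0.092, edgeR), with an adjusted p of 1.00.

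Opposite to MTHFD2, SLC4A5 (ENSG00000188687), a bicarbonate cotransporter gene, shares 1324 bases. It had 346, 322 and 392 counts in siNC and 228, 358 and 331 in siSHMT2, against 38, 27 and 38 and 17, 34 and 36 for MTHFD2. These are 10.4 times the MTHFD2 counts in total, at a log2 fold change of -0.09 ± 0.12 (standard error, edgeR). MTHFD1 is overlapped by the lncRNA gene ENSG00000272909 over 1556 bases, with 188 counts in total against 485, and it stood at 0.43 ± 0.28 (log2 fold change ± standard error, edgeR). It is also overlapped by ZBTB25 over 178 bases, with 54 counts. ALDH1L2 had 21 counts in total, and WASHC4, which shares 131 bases with it, had 67.

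Across the data, a gene's own counts were set against how far exons on the opposite strand cover it. The median total count over the 6 libraries was 32 for the 7683 protein-coding genes with no exonic bases covered. It was 53 with up to 10% covered (3831 genes), 77 with up to 40% (1818 genes) and 123.5 above that (308 genes). The median FPKM had the same order, with 1.84, 2.62, 5.36 and 9.53. What part of the counts of TYMS, MTHFD2 and MTHFD1 came from either strand was not tested. The 16 annotated pseudogenes named after the 10 genes had 0 counts except SHMT1P1 with 1 and MTHFD1P1 with 29 in total.

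**Figure D4:**
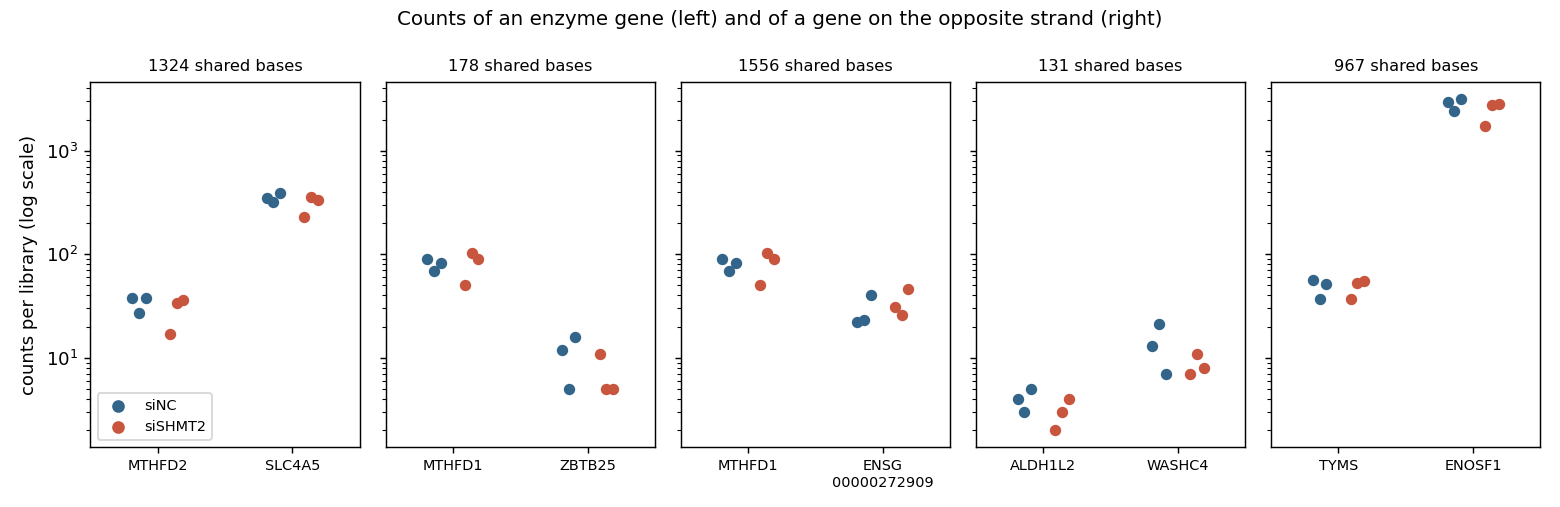
Counts per library (vertical axis, log scale) of an enzyme gene (left in each panel) and of a gene with exons on its opposite strand (right), for the 5 pairs whose opposite-strand gene had at least 20 counts, with siNC in blue and siSHMT2 in red. ENOSF1 and SLC4A5 lie far above TYMS and MTHFD2 in each library, and the genes opposite to MTHFD1 lie below it.

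A wider list of 40 other genes of serine, glycine, folate and methionine metabolism was read beside the enzymes. Of these, 18 were tested and 22 lay below the filter, 6 of them with 0 counts. All adjusted p were above 0.05, 8 genes had a positive and 10 a negative log2 fold change, and the median was -0.04. An unadjusted p under 0.05 with a fold change over 1.5 was reached by 1 of the 18 genes, DLD, higher in siSHMT2, where 1.36% of all tested genes passed as higher and 2.68% in either direction.

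DLD, the dihydrolipoamide dehydrogenase shared by the glycine cleavage system and the 2-oxoacid dehydrogenases, had 6.57, 5.14 and 6.67 FPKM in siNC and 9.01, 10.4 and 10.8 in siSHMT2. The groups did not overlap, as for 9.20% of all tested genes in log2 CPM. Its log2 fold change of 0.72 ± 0.32 (standard error) had an unadjusted p of 0.030 and an adjusted p of 1.00 (edgeR). LAMB1 on the opposite strand shares 300 bases with DLD and had 441 counts in total against 130.

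GCSH, the lipoyl carrier of the same glycine cleavage system, had 6.27, 2.98 and 1.77 FPKM in siNC and 0.739, 8.18 and 7.74 in siSHMT2. It overlapped between the groups, at a log2 fold change of 0.70 ± 0.54 (standard error, edgeR). ATIC, which closes de novo purine synthesis with a folate-borne formyl group, came to 0.26 ± 0.29 (standard error, edgeR) on the log2 scale. Among the negative values of the list were -0.29 (standard error 0.43) for MAT2B, a subunit of methionine adenosyltransferase, and -0.26 (0.45) for SFXN3, a serine transporter of mitochondria. The most counted genes of the list, chosen after their values were seen, were SRR, serine racemase, with 4299 counts and SLC46A1, the proton-coupled folate transporter, with 571. Exons on the opposite strand cover 35.2% and 60.6% of their exonic bases, where TSR1 had 1303 counts and SARM1 4263.

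The genes whose pattern over the 6 libraries was most like that of SHMT2 were not enzymes of the pathway. The likeness was measured by the mean absolute difference of log2 CPM, each gene centred on its mean. It was 0.36 for PEX26, a peroxisome import factor, 0.39 for MRPL54, a mitochondrial ribosomal protein, and 0.40 for GABARAP, an autophagy protein, against a median of 0.89 over the 7206 other tested genes. PSAT1 was at rank 259 with 0.65, and the other tested enzymes had 0.86 to 0.98. A gene with no difference between libraries would have 0.87, so values near it describe neither likeness nor unlikeness.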

How the data were processed

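The authors checked reads with FastQC 0.11.9, trimmed them with fastp 0.23.4 and aligned them to GRCh38 with HISAT2 2.2.1. How reads were counted on genes (program, strand, annotation release) is not given in the sources used here. The deposited counts are raw whole numbers, 533689 to 890574 per library, and the deposited FPKM values equal the counts divided by the listed gene length and the library total. The 10 members, the wider list and the tests were chosen with earlier results of these data known.

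Gene symbols, positions and exons came from GENCODE release 44, which matched 62666 of 63241 listed genes. Expression was compared across all genes in R 4.3.3 with edgeR 4.0.16 (TMM, filterByExpr, quasi-likelihood test, two-sided, no replicate block) with Benjamini-Hochberg adjustment over the 7207 tested genes. A member below the filter was given from the fit without the filter. Intervals of 95% came from the fold change and its standard error. Single genes were compared in FPKM by an exact permutation test. Log2 CPM used a prior count of 2. The script was tested on simulated data. Alternatives were DESeq2 1.42.0, limma 3.58.1 on log2(FPKM + 1) or log2(FPKM + 0.1), other normalizations and filters, a replicate block and the omission of single libraries. Exonic bases as gene length were added after seeing the data.

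Genes were named by rule: the 10 enzymes, genes with exons opposite to theirs and at least 20 counts, the 3 highest and 3 lowest fold changes and every unadjusted p under 0.05 of the wider list, and the 3 genes most like SHMT2. NDUFA4L2, SMCR8, LAMB1, SRR, SLC46A1, TSR1, SARM1, CNBP and the pseudogenes fall outside the rule and were named after their values were seen. A gene that this rule named is not reported here. The study calls the replicates biological, but neither it nor the labels say that they were separate cultures, so p-values measure the spread between these libraries, which may be technical. Replicates of a group differed by more than counting noise (chi-square per degree of freedom 1.74 to 2.33). The sequences of both siRNAs are not used here.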

Additional observations from a re-analysis of the deposited data

How the results depend on the processing

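SHMT2 kept a negative log2 fold change in all 13 alternatives that tested it (-2.58 to -1.31), and PSAT1 in all 13 (-1.37 to -0.81); both ranges come from leaving out a library, and a minimum of 10 counts in each library removed both genes from testing. MTHFD2 stayed negative in all 14 alternatives (-0.19 to -0.0097, smallest in size without siSHMT2 replicate 1). MTHFD1 (0.0092 to 0.23, smallest without siSHMT2 replicate 2) and TYMS (0.069 to 0.22) stayed positive in all 14. With a library left out, PHGDH ranged from -0.43 to 0.17, above 0 without siNC replicate 3, siSHMT2 replicate 1 or siSHMT2 replicate 3, and MTHFD1L from -0.070 to 0.28, below 0 without siSHMT2 replicate 2. The 10 enzymes held 2 genes past the unadjusted threshold with a fold over 1.5, 0 at that count minimum, and 1 to 2 with a library left out, the 1 being SHMT2 without siSHMT2 replicate 1 or 2. Without siNC replicate 2 they were SHMT2 and SHMT1 in place of PSAT1. Over all genes this number was 193 as reported, 80 with DESeq2, 607 without the filter, 114 at that minimum and 232 to 309 with a library left out, the highest without siSHMT2 replicate 3. Genes with an adjusted p under 0.05 numbered 0 in each alternative with 6 libraries and 0 to 1 with a library left out, the 1 being CNBP without siSHMT2 replicate 3. The adjusted p of SHMT2 was 0.20 to 1.00 over its alternatives. For the change of tool the cause was not tested, and the filters change how many genes are tested.

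In counts rather than FPKM, the mitochondrial share of the 10 genes was 28.8% in siNC and 24.7% in siSHMT2, against 20.9% and 17.1%, since longer genes weigh more. With a library left out, SHMT2 made up 56.8% to 73.8% of the SHMT FPKM in siNC and 31.7% to 66.3% in siSHMT2, and the mitochondrial share was 20.4% to 21.3% and 15.7% to 17.9%.

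Libraries with the same replicate number did not deviate together (r = -0.02, 0.05 and -0.01 across genes, which are not independent), so they share only a number. With the replicate block the log2 fold change was -1.77 for SHMT2 and -1.01 for PSAT1, with 187 genes in all past the same threshold. Low counts limit PSPH, ALDH1L2 and SHMT1 most, with at most 15 in any library.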
